A study of Homo sapiens with 6 samples.

Results

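Transcripts of 51 genes that load, fire and run DNA replication origins and forks were compared in OVCAR3 cells with and without knockdown of NUF2. The genes were taken by name, and all 51 were found among the 19973 genes of the count table. OVCAR3 is an established human ovarian cancer cell line, and NUF2 is a subunit of the NDC80 complex that ties kinetochores to spindle microtubules. RNA-seq libraries of total RNA were made from 3 shNC samples (genotype WT, transfected with the negative control hairpin) and 3 shNUF2 samples (NUF2 knockdown, transfected with a hairpin against NUF2). Both groups were OVCAR3 cells selected with puromycin into stable lines, so the control cells carried a hairpin vector and the selection as well. Each group has 1 hairpin, expressed from a phU6-shRNA-CMV-puromycin vector. Whether the stable lines were pools or clones, and whether the libraries of a group came from separate cultures, is not given in the sources used here, so the p-values measure only the spread between these libraries.

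Replication starts from origins that are prepared before S phase. The origin recognition complex, CDC6 and CDT1 load the MCM2 to MCM7 ring onto DNA, and the kinase CDC7 with its activator DBF4, together with CDC45 and the GINS complex, turns the ring into a running helicase. At the fork, primase and polymerase alpha start each strand, RFC loads the PCNA clamp, polymerases epsilon and delta extend, RPA covers single-stranded DNA, and FEN1 and LIG1 join the Okazaki fragments.

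NUF2 (ENSG00000143228) was checked first. Its level was 63.5, 68.6 and 63.5 CPM (read counts scaled to the TMM-adjusted library size) in the shNC libraries and 20.8, 22.3 and 25.5 CPM in the shNUF2 libraries, a log2 fold change of -1.51 ± 0.08 (SE), with an adjusted p of 2.17e-15 by the quasi-likelihood test of edgeR with Benjamini-Hochberg adjustment. The libraries held 13057534 to 16995452 reads on genes. Of the 9 markers listed for OVCAR3, KRT7 (7485 to 12768 reads) and KRT8 (4967 to 10296 reads) were abundant, MUC16 had 371 to 873 reads and PAX8 143 to 252, whereas EPCAM had 44 to 91 reads, CDH1 9 to 33 and WT1 0 to 7. Of these, KRT8 (log2 fold change 1.04) and EPCAM (0.69) were highest with shNUF2 and MUC16 and MSLN (-0.75 each) lowest. EPCAM, CDH1 and WT1 thus had few reads for markers listed for this line. The name OVCAR3 is taken from the labels, and the identity of the cells was not tested. Of 8 leukocyte, endothelial and fibroblast markers, 4 had enough reads to be tested, and these 4 summed to 85.4 to 93.2 CPM with shNC and 70.6 to 77.6 CPM with shNUF2. All 8 summed to 1261 to 1605 reads with shNC and 1028 to 1085 reads with shNUF2, most of them from COL1A1. CD3E was near 0 (0 or 1 read in every library), PTPRC had 0 or 1 read with shNC and 6 to 11 with shNUF2, CD14 had 0 to 3 and 6 to 11, VWF had 0 to 3 and 2 to 6, and COL1A1, which was lowest (-0.39), had 1123 to 1468 and 835 to 886 reads. PECAM1 (-0.02) was not called, nor was PDGFRB (0.53), and DCN, the highest (1.22), had 40 to 67 and 104 to 130 reads. Whether the culture held any such cells, and what part they would have in the results below, was not tested.

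Replication transcripts shifted unevenly and mostly by little. Of the 51 genes, all of which passed the filter on low counts, 25 were lower with shNUF2 at an adjusted p under 0.05 (49.0%), 5 were higher (9.80%) and 21 were not called. With TREAT in edgeR, which asks for more than a 1.2-fold change, 15 were lower and 3 higher. By the same test 2720 of all 12874 genes tested were lower and 3027 higher. Under TREAT the calls of CDC6, MCM4, MCM5, CDC45, DBF4, RPA1, POLA2, POLE, POLE2, WDHD1, ORC6 and PRIM2 were lost. Over all 12874 genes tested, 33.8% were called lower and 33.9% higher at an adjusted p under 0.05, so at that threshold the lower share of the replication genes stood above the background and the higher share below it. Their median log2 fold change was -0.11, against -0.01 over all genes tested, and single genes ranged from -1.12 for PRIM1 to 0.77 for GINS4. The change was within 0.5 on the log2 scale for 40 of them. In 14 genes the 95% interval lay within 0.25 of zero. The threshold of the study was read as a log2 fold change over 1 in size with p under 0.05 before adjustment. The study itself names neither the log2 scale nor an adjustment. At this threshold 1 gene, PRIM1, was lower and 0 were higher, where 4.16% and 9.41% of all genes passed. The count of 0 held with DESeq2 and limma. With edgeR 25 genes were lower and 5 higher at an unadjusted p under 0.05 with no fold limit. The shares of all genes at that limit were not counted, but are no smaller than the 33.8% and 33.9% called after adjustment.

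The 51 genes together made up 4734, 4733 and 4758 CPM in the shNC libraries and 4026, 4113 and 4123 CPM in the shNUF2 libraries, a ratio of 0.862. All shNUF2 sums lay below all shNC sums. In RNA from a bulk culture, fewer cells in S phase and less of these transcripts per cell cannot be told apart. Of 8 transcripts that mark proliferating cells, 2 were lower, TOP2A (log2 fold change -0.67 ± 0.04, adjusted p = 6.26e-14 by edgeR) and MKI67 (-0.22 ± 0.04, adjusted p = 4.89e-05), and 3 were higher (25.0% and 37.5%, near the shares over all genes tested), led by BIRC5 (0.28 ± 0.06, adjusted p = 0.000149) and PLK1 (0.15 ± 0.05, adjusted p = 0.0133). The median of the 8 was 0.07. Their summed level was 1839 to 1880 CPM with shNC and 1534 to 1596 with shNUF2, nearly all of the difference being that of TOP2A (means of 798 and 500.4 CPM); their part in the results below was not tested.

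For 25 replication genes all shNUF2 libraries lay below all shNC libraries, against 35.4% of all genes, and for 8 all lay above, against 35.2%. The 25 became 31 and the 8 became 5 when counts were scaled to library totals only, where the share of all genes was not counted. The plot of all log2 fold changes shows the scatter within each functional group.

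**Figure D1:**
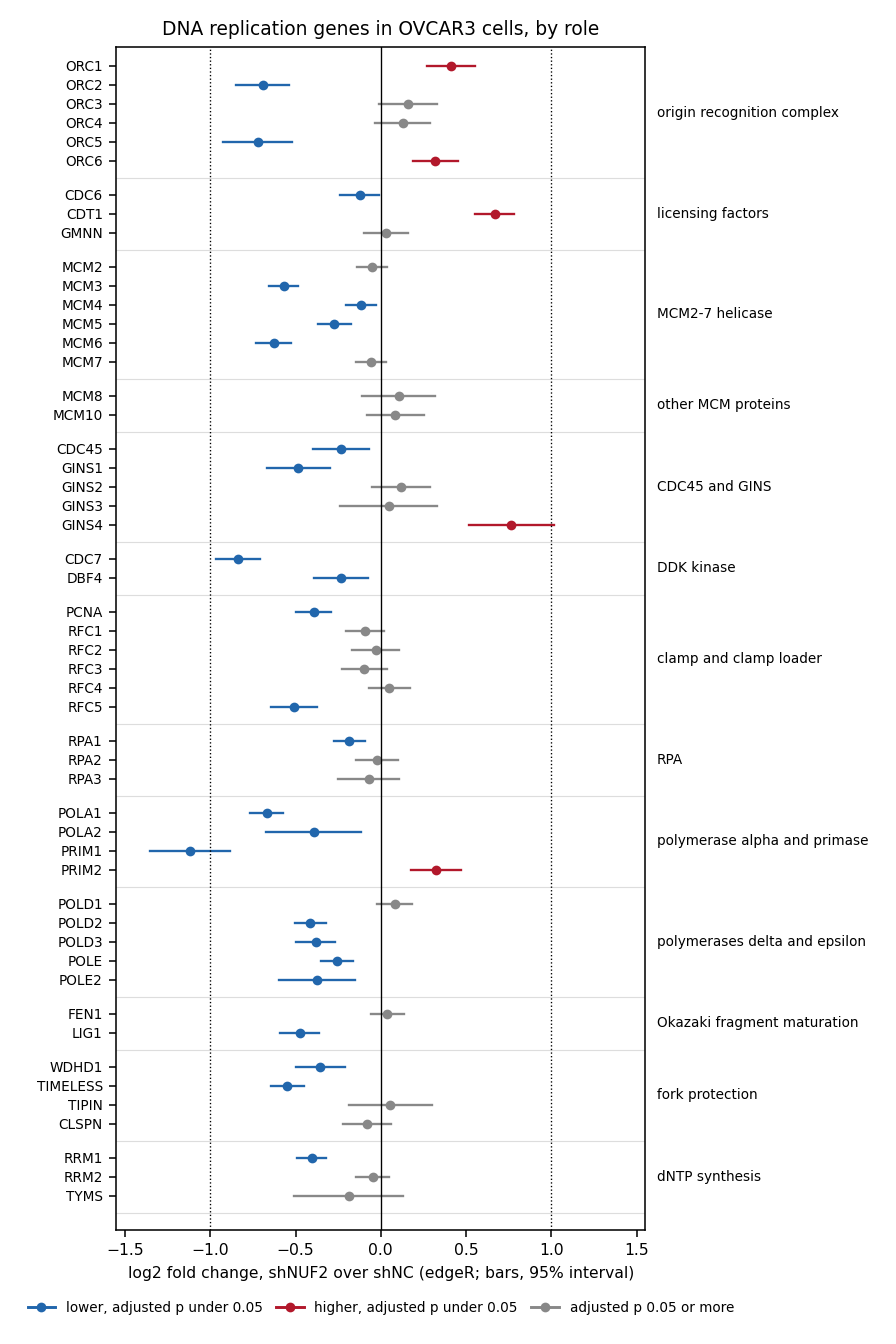
Log2 fold change (shNUF2 over shNC, horizontal axis) of each of the 51 replication genes with its 95% interval, grouped by function, from 3 libraries per group. Points run from -1.12 (PRIM1) to 0.77 (GINS4), with higher and lower genes inside the same complex.

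Because many replication genes are known targets of E2F factors, their promoters were searched for E2F letters (TTTGGCGC, TTTGCCGC, TTTCGCGC or TTTCCCGC, on either strand, a palindromic site counting on both). RefSeq promoter windows on GRCh38.p14, from 250 bases before to 50 after the annotated start, were found for 45 of the 51 genes, and 20 of these (44.4%) held the letters. The letters occurred in 556 of 10297 windows of genes tested (5.40%) and in 908 of all 27305 windows (3.33%). Among the replication genes they stood in 10 of 22 windows of genes that were lower (45.5%), 1 of 4 that were higher (25.0%) and 9 of 19 that were not called (47.4%). A match is a description of the letters only. The windows of 30 bases below show the first match in a higher gene (CDT1), in lower genes of the helicase, the clamp and polymerase alpha (MCM3, MCM6, PCNA, POLA1) and in a gene that was not called (MCM2), since similar letters lie near the starts of genes called in opposite directions and of genes not called. They are RefSeq sequence read on the strand of the gene, and capitals mark the matched letters, which begin at -35 (CDT1), 2 (MCM2), -174 (MCM3), -152 (MCM6), -59 (PCNA) and -137 (POLA1) from the start base counted as 0.
CDT1 (chr16:88803743-88803772, plus strand): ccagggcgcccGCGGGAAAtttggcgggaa
MCM2 (chr3:127598402-127598431, plus strand): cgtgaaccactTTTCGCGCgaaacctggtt
MCM3 (chr6:52284898-52284927, minus strand): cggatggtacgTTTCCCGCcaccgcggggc
MCM6 (chr2:135876577-135876606, minus strand): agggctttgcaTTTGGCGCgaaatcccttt
PCNA (chr20:5126663-5126692, minus strand): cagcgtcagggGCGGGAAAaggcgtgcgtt
POLA1 (chrX:24693770-24693799, plus strand): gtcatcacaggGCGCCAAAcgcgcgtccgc

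Of the 6 subunits of the origin recognition complex, 2 were higher, 2 were lower and 2 were not called, shares (33.3% each way) near those over all genes tested. ORC1 (ENSG00000085840), an ATPase subunit whose binding to chromatin varies over the cell cycle, was at 39.0, 41.5 and 44.1 CPM in the shNC libraries and 54.7, 53.2 and 58.0 CPM with shNUF2. ORC6 (ENSG00000091651), the smallest subunit, was at 51.2, 48.9 and 50.3 CPM with shNC and 60.5, 68.2 and 59.2 CPM with shNUF2. In both genes the shNUF2 libraries were the high ones, without overlap. ORC1 rose by 0.41 ± 0.07 (adjusted p = 6.62e-06) and ORC6 by 0.32 ± 0.06 (adjusted p = 9.9e-05) on the log2 scale. ORC2 (ENSG00000115942), a core subunit, was at 43.8, 45.0 and 45.6 CPM with shNC and 28.8, 26.2 and 28.1 CPM with shNUF2. ORC5 (ENSG00000164815), another core subunit, was at 25.7, 32.2 and 30.6 CPM with shNC and 18.5, 16.7 and 18.4 CPM with shNUF2. Here all shNUF2 libraries were the low ones, without overlap. ORC2 fell by 0.69 ± 0.07 (adjusted p = 6.48e-09) and ORC5 fell by 0.72 ± 0.10 (adjusted p = 4.14e-07). ORC3 and ORC4 were not called, at 0.16 (95% interval -0.01 to 0.33, adjusted p = 0.0865) and 0.13 (-0.03 to 0.29, adjusted p = 0.149). Without shNC replicate 2, whose 46.2 CPM was the highest of its group, ORC3 was called higher, at 0.27 with an adjusted p of 0.00736, and without shNC replicate 3, the lowest at 35.6 CPM, it was at 0.066 and not called. Per length, ORC1 was the highest and ORC4 the lowest subunit in every library, with an FPKM ratio of 3.59 to 3.97 with shNC and 4.35 to 4.82 with shNUF2.

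Of the licensing factors, CDT1 (ENSG00000167513), which brings the MCM ring to the origin, rose. It was at 90.2, 76.4 and 90.6 CPM in the shNC libraries and at 136, 134 and 138 CPM in the shNUF2 libraries, a gap wider than the spread within either group. The log2 fold change was 0.67 ± 0.06, a ratio of 1.59, with an adjusted p of 5.68e-11. GMNN, which encodes geminin, the inhibitor that binds CDT1, was at 58.9, 57.1 and 59.8 CPM with shNC and 56.9, 64.2 and 58.5 with shNUF2, and the groups overlapped (0.03, 95% interval -0.10 to 0.16, adjusted p = 0.68). CDC6, the ATPase that works with CDT1, was at 87.4, 92.0 and 98.2 CPM with shNC and 83.5, 82.2 and 89.2 with shNUF2. Its call was marginal, at -0.12 ± 0.06 with an adjusted p of 0.0497, and the groups overlapped. The CDC6 call was lost without shNC replicate 2 (-0.13, adjusted p = 0.0766), shNC replicate 3 (-0.08, adjusted p = 0.237), shNUF2 replicate 1 (-0.11, adjusted p = 0.12) or shNUF2 replicate 2 (-0.10, adjusted p = 0.155), and with the Wald test of DESeq2 (adjusted p = 0.123). It was also lost with DESeq2 size factors (adjusted p = 0.065), when testing was limited to genes reaching 1 CPM throughout (adjusted p = 0.09998), and under TREAT.

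The MCM2 to MCM7 ring holds its 6 subunits in equal number, but their transcripts did not shift equally. MCM6 (ENSG00000076003) was at 150.2, 165 and 159.5 CPM in the shNC libraries and 97.9, 102 and 107 CPM in the shNUF2 libraries. MCM3 (ENSG00000112118) was at 323, 333 and 333 CPM with shNC and 219.8, 226 and 220.4 CPM with shNUF2. In both, the shNUF2 libraries were lower and did not overlap with shNC. MCM6 fell by 0.63 ± 0.05 (adjusted p = 1.98e-11) and MCM3 fell by 0.57 ± 0.04 (adjusted p = 3.59e-12). MCM2 (ENSG00000073111) was at 239, 240.1 and 251 CPM with shNC and 241, 232 and 233 CPM with shNUF2, so that the groups overlapped. Its log2 fold change was -0.05, with a 95% interval of -0.14 to 0.04 and an adjusted p of 0.312. MCM7 was not called either (-0.06, 95% interval -0.15 to 0.03, adjusted p = 0.222). MCM5 fell by 0.27 ± 0.05 (adjusted p = 1.22e-05), and MCM4 was lower by a small amount (-0.11 ± 0.04, adjusted p = 0.0202). The MCM4 call was lost without shNC replicate 3 (-0.11, adjusted p = 0.0513) or shNUF2 replicate 2 (-0.10, adjusted p = 0.0737), when testing was limited to genes reaching 1 CPM throughout (-0.09, adjusted p = 0.0539), and under the TREAT test beyond 1.2-fold. Of the MCM2 exon bases 23.6% overlap another gene on the opposite strand, and whether counting used the strand is not given in the sources used here.

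Per length, mean FPKM with shNC was 91.5 for MCM3, 54.1 for MCM7, 52.3 for MCM2, 38.7 for MCM6, 33.8 for MCM4 and 22.1 for MCM5. With shNUF2 it was 60.1, 50.6, 49.2, 24.4, 30.4 and 17.8 in the same order of genes, so MCM6 moved below MCM4. MCM3 stayed highest and MCM5 lowest in every library, 3.93 to 4.25 times apart with shNC and 3.20 to 3.49 times apart with shNUF2. Of the other MCM proteins, MCM8, which acts with MCM9 in recombination repair, and MCM10, which helps start the helicase, were not called, at 0.10 (95% interval -0.11 to 0.32) and 0.09 (-0.08 to 0.25). With each library left out in turn they ran from 0.028 to 0.18 and from 0.031 to 0.16.

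**Figure D2:**
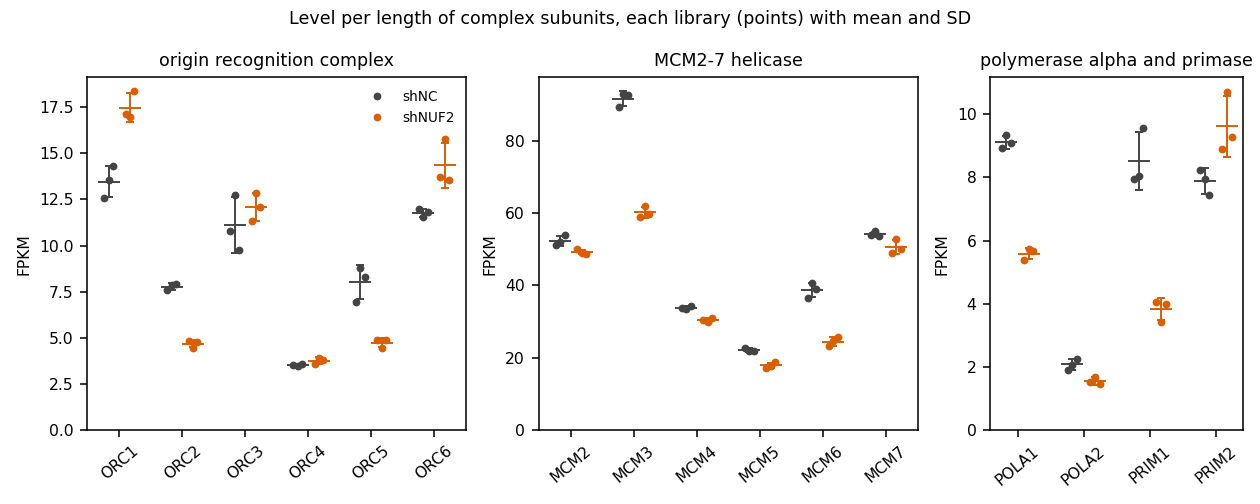
FPKM of each subunit in each library (points; 3 shNC and 3 shNUF2 libraries; linear axis from 0) with the group mean and SD (bars), for the origin recognition complex, the MCM2 to MCM7 ring, and polymerase alpha with primase. Within a complex some subunits separate by group, such as MCM3, MCM6, ORC2 and PRIM1, while others, such as ORC3, overlap. FPKM is scaled to library totals, so MCM2, whose groups overlap in CPM, lies slightly lower with shNUF2 here.

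CDC7 (ENSG00000097046), the kinase that fires licensed origins, had the second lowest log2 fold change of the replication genes. It was at 72.8, 82.2 and 82.7 CPM with shNC and 44.7, 44.5 and 44.0 CPM with shNUF2. The shNUF2 libraries were low and close together. CDC7 fell by 0.84 ± 0.06, a ratio of 0.560, with an adjusted p of 5.54e-12. DBF4, the regulatory subunit that activates it, fell by 0.23 ± 0.08 (36.0 to 40.1 CPM with shNC and 30.7 to 34.6 with shNUF2, adjusted p = 0.0104), a call that was lost without shNUF2 replicate 2 (-0.20, adjusted p = 0.0502).

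CDC45 and the 4 GINS subunits complete the helicase, and within GINS the transcripts went apart. GINS4 (ENSG00000147536) was at 10.5, 10.5 and 9.88 CPM with shNC and 17.4, 15.5 and 19.3 CPM with shNUF2. GINS1 (ENSG00000101003) was at 28.6, 33.7 and 32.6 CPM with shNC and 24.2, 22.6 and 21.2 CPM with shNUF2. GINS4 was thus high and GINS1 low in every shNUF2 library, without overlap. GINS4 rose by 0.77 ± 0.12, a ratio of 1.70 (adjusted p = 3.25e-06), and GINS1 fell by 0.48 ± 0.09 (adjusted p = 3.8e-05). GINS4 rests on 149 to 291 reads per library, and 23.6% of its exon bases overlap a gene on the opposite strand. GINS2 (0.12, 95% interval -0.05 to 0.29) and GINS3 (0.05, -0.24 to 0.33) were not called. CDC45 fell by 0.23 ± 0.08 (adjusted p = 0.0128), and its call was lost without shNC replicate 2 (-0.21, adjusted p = 0.0572) or shNUF2 replicate 1 (-0.15, adjusted p = 0.108).

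Primase and polymerase alpha held the lowest value of the whole group. PRIM1 (ENSG00000198056), the catalytic primase subunit, lies on chromosome 12 from 56731296 to 56752374 on GRCh38.p13. It was at 22.5, 22.6 and 27.0 CPM in the shNC libraries and at 11.9, 9.85 and 11.5 CPM in the shNUF2 libraries, from 320 to 464 and 128 to 173 reads. Each shNUF2 library was far below each shNC library. PRIM1 fell by 1.12 ± 0.11 on the log2 scale (95% interval -1.35 to -0.88), a ratio of 0.461, with an adjusted p of 2.21e-09. Leaving out each library in turn gave -1.17 to -1.03, and limma on log2(FPKM + 1) gave -0.98, short of the fold limit of the study. Of its exon bases, 21.6% overlap other genes, 16.2% on the same strand. PRIM2 (ENSG00000146143), its regulatory partner, went the other way, at 46.3, 44.2 and 41.6 CPM with shNC and 51.4, 60.8 and 53.1 CPM with shNUF2. These groups did not overlap either, and PRIM2 rose by 0.32 ± 0.07 (adjusted p = 2.64e-04). POLA1 (ENSG00000101868), the polymerase subunit, was at 138, 143 and 139.6 CPM with shNC and 85.7, 89.3 and 89.0 CPM with shNUF2. POLA1 was low in every shNUF2 library and fell by 0.67 ± 0.05 (adjusted p = 1.83e-12). POLA2, the accessory subunit, was at 10.6 to 12.4 CPM with shNC and 8.11 to 9.39 CPM with shNUF2 (-0.39 ± 0.14, adjusted p = 0.0125). The POLA2 call was lost without shNC replicate 3 (-0.33, adjusted p = 0.0668) or shNUF2 replicate 3 (-0.34, adjusted p = 0.0546), and 35.1% of its exon bases overlap another gene on the same strand.

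Of the 5 subunits of polymerases delta and epsilon among the 51 genes, 4 fell (80.0%, against 33.8% of all genes tested). POLD2 (ENSG00000106628), the accessory subunit of delta, was at 179, 175 and 179 CPM with shNC and 129.9, 138 and 133 CPM with shNUF2. All shNUF2 libraries were lower, and POLD2 fell by 0.41 ± 0.05 (adjusted p = 8.48e-09). POLD1, the catalytic subunit of delta, was at 96.3, 92.0 and 96.8 CPM with shNC and 103, 100.3 and 98.5 CPM with shNUF2. POLD1 was slightly above in every shNUF2 library but was not called (0.08, 95% interval -0.02 to 0.18). POLD3, another delta subunit, fell by 0.38 ± 0.06, POLE, the catalytic subunit of epsilon, fell by 0.25 ± 0.05, and POLE2, its second subunit, fell by 0.37 ± 0.11 (adjusted p of 1.11e-06, 2.37e-05 and 0.00346). The 3 further subunits, listed with the other replication genes, did not share 1 direction: POLE3 fell by 0.32 ± 0.07 (adjusted p = 0.000148), POLE4 rose by 0.43 ± 0.11 (adjusted p = 0.000898), and POLD4 rose by 0.56 ± 0.24 (adjusted p = 0.0445) on 35 to 79 reads per library.

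The PCNA clamp and 1 of the 5 subunits of its loader fell, a share of 33.3% that is near the 33.8% over all genes tested. PCNA (ENSG00000132646), which holds the polymerases on DNA, was at 157, 166 and 157 CPM with shNC and 115, 128 and 122 CPM with shNUF2, without overlap. PCNA fell by 0.39 ± 0.05 (adjusted p = 8.05e-08). RFC5 (ENSG00000111445), a small loader subunit, was at 69.9, 67.2 and 79.2 CPM with shNC and 48.9, 51.2 and 52.2 CPM with shNUF2. RFC5 was low in every shNUF2 library and fell by 0.51 ± 0.07 (adjusted p = 1.45e-07). RFC4 was at 61.4, 59.4 and 58.5 CPM with shNC and 60.2, 62.6 and 62.9 CPM with shNUF2, and the groups overlapped (0.05, 95% interval -0.07 to 0.17). RFC1, the large subunit, RFC2 and RFC3 were not called, at -0.09, -0.03 and -0.10. For RFC1 and RFC3 this depended on the processing. RFC1 was called lower without shNC replicate 2 (-0.14, adjusted p = 0.0484), with library totals only (-0.13, adjusted p = 0.0308) and with no filter (-0.12, adjusted p = 0.045), while without shNUF2 replicate 2 it was at -0.045 and not called. RFC3 was called lower by limma on log2(FPKM + 1) (-0.13, adjusted p = 0.0485) and log2(FPKM + 0.1) (-0.14, adjusted p = 0.0484). Per length, PCNA was 6.59 to 7.71 times its lowest loader subunit with shNC and 5.47 to 6.45 times with shNUF2.

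Of RPA, the trimer that coats single-stranded DNA, the large subunit was lower. RPA1 was at 210.3, 196 and 201 CPM with shNC and 173, 181 and 181 CPM with shNUF2, without overlap, and fell by 0.18 ± 0.05 (adjusted p = 7.77e-04). RPA2 was at 58.9, 62.6 and 64.1 CPM with shNC and 59.7, 63.6 and 59.4 CPM with shNUF2, and the groups overlapped (-0.02, 95% interval -0.15 to 0.10). RPA3 was not called (-0.07, 95% interval -0.25 to 0.11).

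Of the enzymes that finish Okazaki fragments, the ligase and the nuclease gave different values. LIG1, which seals the nicks, was at 92.6, 88.8 and 94.1 CPM with shNC and 64.8, 63.6 and 69.5 CPM with shNUF2. It was low in every shNUF2 library and fell by 0.48 ± 0.05 (adjusted p = 2.21e-08). FEN1, which trims the flaps, was not called (0.04, 95% interval -0.06 to 0.13), although its shNUF2 libraries lay just above those of shNC.

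Among fork protection factors, TIMELESS (ENSG00000111602) was at 141, 147 and 143 CPM with shNC and 96.3, 102 and 96.3 CPM with shNUF2. The shNUF2 libraries were low without overlap, and TIMELESS fell by 0.55 ± 0.05 (adjusted p = 1.19e-10). TIPIN, with which it forms a dimer, was at 13.7, 12.9 and 11.7 CPM with shNC and 12.5, 13.5 and 13.8 CPM with shNUF2, and the groups overlapped (0.06, 95% interval -0.19 to 0.30). Of the TIPIN exon bases 21.0% overlap another gene on the same strand. WDHD1, which links polymerase alpha to the helicase, fell by 0.35 ± 0.07 (adjusted p = 7.86e-05). CLSPN, the adaptor that relays the checkpoint signal to CHK1, was not called (-0.08, 95% interval -0.22 to 0.06), although its shNUF2 libraries lay just below those of shNC.

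For nucleotide supply, the subunits of ribonucleotide reductase differed. RRM1 (ENSG00000167325), the large subunit, was at 418, 405 and 397 CPM with shNC and 296, 308 and 317 CPM with shNUF2. RRM1 was low in every shNUF2 library and fell by 0.41 ± 0.04 (adjusted p = 3.53e-09). RRM2, the small subunit, whose level follows S phase, was at 145, 146 and 139 CPM with shNC and 139, 136 and 142 CPM with shNUF2. These groups overlapped (-0.05, 95% interval -0.14 to 0.05), and 20.2% of the RRM2 exon bases overlap another gene on the same strand. TYMS, thymidylate synthase, was at 8.79, 9.20 and 13.5 CPM with shNC and 9.79, 9.23 and 8.84 CPM with shNUF2, and the groups overlapped (-0.19, 95% interval -0.51 to 0.13). Of its exon bases 46.6% overlap genes on the opposite strand, so its reads are uncertain.

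Ratios of FPKM within a library show how far partners went apart. The pairs were chosen after the values were seen, and the ratios are a description with no test. The ratio of PRIM2 to PRIM1 was 1.04, 0.988 and 0.779 with shNC and 2.19, 3.12 and 2.33 with shNUF2, a mean of 0.935 ± 0.137 against 2.55 ± 0.501 (SD, n = 3), or 2.72 times as high. That of GINS4 to GINS1 was 0.278, 0.235 and 0.230 with shNC and 0.547, 0.518 and 0.692 with shNUF2, 2.36 times as high. That of ORC1 to ORC2 was 1.66, 1.72 and 1.81 with shNC and 3.55, 3.80 and 3.86 with shNUF2, 2.16 times as high. In these pairs 1 partner was called higher and the other lower, as in ORC6 to ORC5 (1.49 ± 0.210 and 3.04 ± 0.424). The ratio of CDT1 to GMNN, the loader to its inhibitor, was 1.31 ± 0.0953 with shNC and 2.04 ± 0.151 with shNUF2, 1.56 times as high, with CDT1 alone called. MCM2 to MCM6 was 1.35 ± 0.0638 and 2.02 ± 0.126, with MCM6 alone called. Ratios that were lower with shNUF2 were CDC7 to DBF4 (2.65 ± 0.087 and 1.75 ± 0.119), TIMELESS to TIPIN (5.28 ± 0.448 and 3.47 ± 0.174) and RRM1 to RRM2 (6.13 ± 0.110 and 4.78 ± 0.153).

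**Figure D3:**
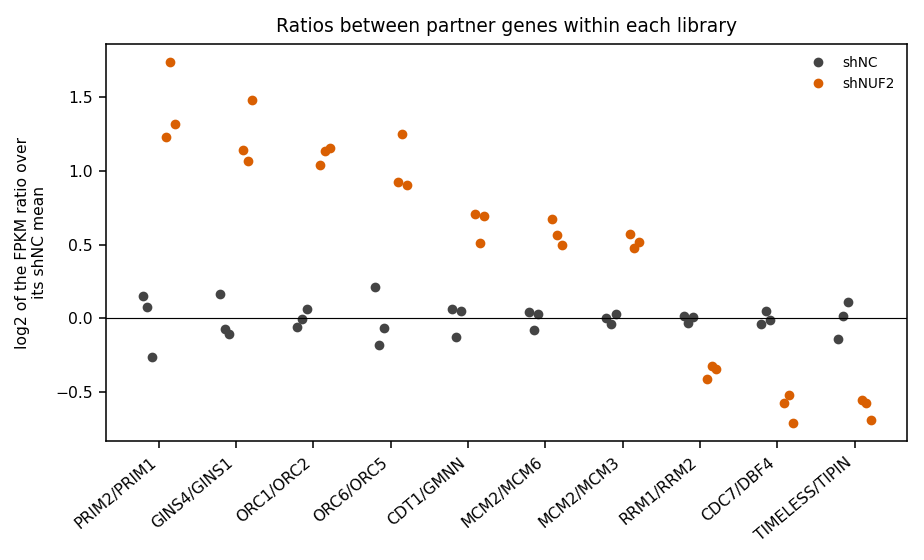
Log2 of the FPKM ratio of partner genes within each library, relative to the shNC mean of that ratio (points), for 3 shNC and 3 shNUF2 libraries. The groups do not overlap in any pair shown, but the pairs were chosen after the values were seen. PRIM2 to PRIM1 lies farthest from the line at 0, its mean ratio being 0.935 with shNC and 2.55 with shNUF2.

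**Figure D4:**
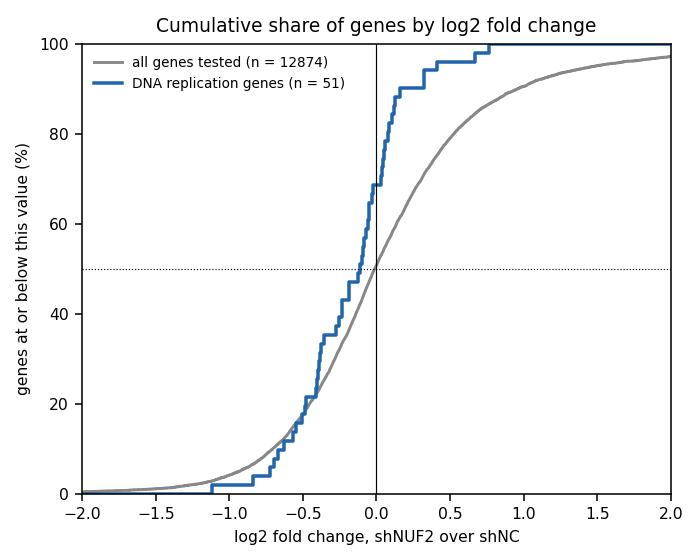
Cumulative share of genes (vertical axis) by log2 fold change (horizontal axis) for the 51 replication genes and for the 12874 genes tested, drawn between -2 and 2. The replication genes run from -1.12 to 0.77, and the medians are -0.11 and -0.01.

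Further genes of the same process were read against the same background of 33.8% lower and 33.9% higher over all genes tested. Of 32 other replication genes 29 had enough reads, and 17 were lower (58.6%) and 7 higher (24.1%), with a median log2 fold change of -0.19. The histone chaperone ASF1A (-1.07 ± 0.12, adjusted p = 8.02e-09) and the repriming enzyme PRIMPOL (-0.96 ± 0.14, adjusted p = 1.07e-06) were lowest. The helicase RECQL4 rose by 0.60 ± 0.06 (adjusted p = 4.16e-10), and RPA4, an RPA2 paralog, had the highest value (1.47 ± 0.47, adjusted p = 0.00682) but only 4 to 10 reads per library with shNC and 14 to 26 with shNUF2. Of 9 further genes of nucleotide supply, 6 were lower (66.7%) and 3 were not called (median -0.30), with SHMT1 of the folate cycle at -0.70 ± 0.07 (adjusted p = 2e-09) and the dUTP hydrolase DUT at -0.51 ± 0.07 (adjusted p = 7.53e-07) lowest, and the thymidine kinase TK1 (0.10) and DCK (0.05) highest and not called. Of 9 genes of the replication checkpoint, 5 were lower (55.6%), with the kinase ATR (-0.67 ± 0.07, adjusted p = 1.64e-09) and the clamp subunit RAD1 (-0.46 ± 0.05, adjusted p = 1.7e-09) lowest, and 3 were higher (33.3%), led by RAD1's partner HUS1 (0.43 ± 0.09, adjusted p = 7.94e-05) and the kinase WEE1 (0.30 ± 0.05, adjusted p = 8.41e-06). For comparison, of 38 kinetochore and spindle checkpoint genes, NUF2 among them, 15 were lower (39.5%) and 12 higher (31.6%), shares near the background (median -0.08), with CENPM (-1.09) lowest after NUF2, and MAD1L1 (2.31) and ZW10 (0.86) highest. A difference between these lists was not tested.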

How the data were processed

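RNA-seq of 3 shNC and 3 shNUF2 libraries of OVCAR3 cells (stranded TruSeq mRNA kit) was grouped by the labels. The submitters' processing notes name cutadapt, HISAT, HTSeq and GRCh38.p13; versions and counting options are not given in the sources used here. The authors deposited read counts per gene without normalization, and FPKM, scaled by gene length and library total.

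Counts were filtered with filterByExpr, scaled by TMM and tested with the quasi-likelihood test of edgeR 4.0.16 (R 4.3.3, no covariate), adjusted by Benjamini-Hochberg over 12874 genes. All adjusted p-values are from edgeR unless DESeq2 or limma is named. An SE is the log2 fold change over the square root of F. The common biological coefficient of variation was 4.93%.

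The genes and lists were chosen with earlier results of these data known. Values in every library are given for genes past the study's threshold, the 5 highest and 5 lowest called genes without overlap, and the highest and lowest of each functional group of 3 or more. MCM3, GMNN, PCNA, LIG1 and TYMS were added after their values were seen. Of the other lists, the 2 highest, the 2 lowest and genes past that threshold are named, with POLE3, POLE4, POLD4, KRT7, PAX8, CDH1, WT1, CD14, VWF, PTPRC and CD3E added after their values were seen. Exon overlaps came from GENCODE release 29.

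Same-numbered libraries did not deviate together (correlations 0.03, 0.01 and -0.04). Alternatives were other scalings and filters, DESeq2 1.42.0, limma 3.58.1 on log2(FPKM + 1) and log2(FPKM + 0.1), a replicate block, edgeR's TREAT test beyond 1.2-fold, and each library left out in turn. The fits of edgeR, DESeq2 and limma were tested on simulated data.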

Additional observations from a re-analysis of the deposited data

How the results depend on the processing

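The counts of lower and higher replication genes, 25 and 5, stayed within 1.5 times under other scalings, other filters, DESeq2, limma and the replicate block, which called the same 25 and 5 genes with a median log2 fold change of -0.11. The labels do not say whether the replicate numbers pair libraries across the groups. The TREAT test beyond 1.2-fold gave 15 lower and 3 higher, against 2720 and 3027 of all 12874 genes. Genes above without overlap numbered 5 in place of 8 with library totals only, with no filter, and with limma on log2(FPKM + 1) or log2(FPKM + 0.1). In the same settings genes below without overlap numbered 31 in place of 25, or 30 with no filter. PRIM1 was at -0.98 with limma on log2(FPKM + 1), which left 0 genes past the study's threshold. An alternative chosen after seeing the data kept the 28 genes without exon overlap with another gene. Of these 28, 16 were lower and 4 higher, against 33.8% and 33.9% of all genes tested. At the study's threshold 0 were lower, against 4.16%. Without overlap between the groups, 15 lay below and 4 above, against 35.4% and 35.2%. Their median was -0.18, and counts over fewer genes are smaller by construction.

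Leaving out each library in turn gave 22 to 25 lower and 5 to 6 higher genes, and a median of -0.13 to -0.09. Over all genes tested, 4107 to 4262 were then lower and 4149 to 4311 higher, of 12976 to 13079. At the study's threshold 1 replication gene was lower and 0 higher, against 534 to 581 and 1198 to 1332 of all genes. Without overlap, 26 to 28 replication genes lay below and 7 to 10 above, and that share over all genes was not counted. The sign turned, without a call in either case, for GMNN (-0.0063 with library totals only, -0.0073 and -0.0077 with limma at pseudocounts 1 and 0.1, and -0.023 to 0.064 with a library left out) and, with a library left out, for GINS3 (-0.020 to 0.10), RFC2 (-0.079 to 0.011), TIPIN (-0.0088 to 0.10) and TYMS (-0.30 to 0.038). The cause was not tested. The scalings moved the median of all genes by less than 0.1. GINS3, GINS4, POLA2, TIPIN and TYMS, with 117 to 291 reads per library, had the widest intervals, and the libraries of TYMS also spread widely within shNC.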

Other observations

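Of the replication genes outside the 51, 3 had too few reads to be tested. RNASEH2A, the catalytic subunit of RNase H2, had 3 to 8 reads per library, and 30.8% of its exon bases overlap another gene on the same strand. CHTF8, a subunit of an alternative clamp loader, had 2 to 12 reads per library, with 12.9% overlapped on the opposite strand. How reads in overlaps were counted is not known, so these counts do not show that the genes are silent. GMNC, a geminin relative of multiciliated cells, had 0 reads in every library. Within the 51 genes, 23 share exon bases with another annotated gene, 7 of them on the same strand. A pseudogene carries the name of 9 genes, PCNA, RPA2, FEN1 and RRM2 among them, and how reads of near-identical copies were counted is not given in the sources used here.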
